A study of Camellia sinensis and Camellia sinensis var. assamica with 18 samples.

Results

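The WRKY transcription factors of tea leaves were described during cold acclimation and after de-acclimation in 2 cultivars. The deposited table describes 72 of its 41021 loci as WRKY, and the 54 of these with at least 1 FPKM (fragments scaled to transcript length and to the mapped fragments of the library) in at least 3 of the 18 libraries were analysed. The same minimum was met by 29019 loci in all, which formed the background of every count. Of the 54, 8 reached the minimum in every library of at most 1 group and in at most 5 libraries in all, so that they were admitted through the libraries where they were high. The other 18 described loci were left out of every count, 9 of them with at least 1 FPKM in a single library or a pair.

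WRKY proteins are plant transcription factors named for a conserved amino acid motif in a zinc-finger domain, with which they bind W-box elements in promoters. In Arabidopsis many of them act in immune signalling downstream of mitogen-activated protein kinases and salicylic acid, and others act in senescence, nutrient stress, drought and the shaping of trichomes and seeds. They are classed by their domains into group I, groups IIa to IIe and group III. VQ motif proteins are known partners of several members.

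Leaves were taken from tissue culture seedlings of SCZ (Camellia sinensis var. Shuchazao), described as cold-tolerant, and of YH9 (C. sinensis var. assamica cv. Yinghong 9), described as cold-sensitive. NA plants were sampled at day 0 after growth with days at 25 °C and nights at 20 °C. CA plants were sampled at day 14, after 7 days of chilling with days at 10 °C and nights at 4 °C and a further 7 days at 4 °C and 0 °C. DA plants had gone through the same cold treatment and were sampled at day 21, after 7 days back at 25 °C and 20 °C. Each of the 6 groups held 3 replicates, numbered in the labels. The labels do not say whether replicates were separate plants or harvests, and p-values measure the spread between these libraries. Only whole leaves were measured, and the design gives no time point within the cold treatment. No plants kept warm throughout were sampled at day 14 or 21, so age cannot be told apart from the treatment in any comparison between stages.

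The libraries held 47291392 to 78305612 estimated counts. The 26 leaf mesophyll loci (Rubisco small subunit, Rubisco activase and chlorophyll a-b binding proteins) summed to 28650 to 37090 FPKM in SCZ_NA, 2375 to 8952 in SCZ_CA and 10960 to 15710 in SCZ_DA, and to 24390 to 33210, 6889 to 8392 and 8630 to 11790 in the matching YH9 groups. The sum of the 5 loci of dividing cells (cyclin B, histone H4 and the like) moved the other way, from 54.8 to 86.4 FPKM in SCZ_NA to 129 to 152 in SCZ_CA, and from 78.2 to 83.8 in YH9_NA to 113 to 123 in YH9_CA. The 11 xylem and secondary wall loci summed to 15.7 to 73.6 FPKM in SCZ_NA and 1.62 to 10.3 in SCZ_CA, without overlap, and to 13.98 to 89.9 in YH9_NA and 7.58 to 20.99 in YH9_CA. The 11 loci listed for guard cells were those described as FAMA, MUTE or epidermal patterning factor, and whether they mark guard cells alone was not tested. Their sums were separate in both cultivars. In SCZ they went from 7.29 to 13.8 FPKM at NA to 0.487 to 3.03 at CA, where 7 of the loci were at 0 in all 3 libraries. In YH9 they went from 6.66 to 17.7 to 2.84 to 4.57. Of the loci tested, 4 of 7 xylem, 2 of 3 guard cell and 18 of 24 mesophyll loci fell at CA in SCZ, against 19.1% of all loci. In YH9 1 of 7, 1 of 3 and 18 of 24 fell, against 14.2%, and 1 mesophyll locus rose. Of the 5 loci of dividing cells 2 rose and 1 fell in SCZ, and 2 rose and 0 fell in YH9, where 15% and 11.7% of all loci rose. The part of these cell types in the WRKY values was not tested. In whole leaves a change in the number of cells of a type and a change in RNA per cell cannot be told apart.

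A pair of SCZ libraries stood apart at the WRKY loci. SCZ_NA replicate 3 was the highest of its group at 41 of the 54 loci (75.9%, against 29.8% of all loci) and reached at least 2 times both other replicates at 27 (50.0%, against 3.3%). SCZ_CA replicate 2 was the highest at 30 loci (55.6%, against 37.2%) and at least 2 times both others at 17 (31.5%, against 8.3%), and it had the lowest mesophyll marker sum of its group, 2375 FPKM against 7896 and 8952. Over the WRKY loci their mean correlations with the other replicates of their groups were 0.80 and 0.75, the lowest of the 18 libraries. Over all loci, however, SCZ_NA replicate 3 had the highest such correlation of its group, 0.926, and SCZ_NA replicate 1 the lowest, 0.89. SCZ_NA replicate 1 was also the lowest of its group at 40 of the 54 WRKY loci and at 61.9% of all loci. Many WRKY results that rest on either library are given with and without both, an alternative chosen after the data were seen. Both were singled out as high at these same loci, so leaving them out tends to lower their groups there and is no independent check.

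The WRKY loci covered a wide range of levels on the FPKM scale, which is per length. Their means over the 18 libraries ran with a median of 7.15 FPKM, 22 loci averaged at least 10 FPKM and 11 averaged under 2. At least 1 FPKM was reached in every library by 28 loci, and in exactly 3 libraries by 3. By the number in their descriptions, taken as the Arabidopsis namesake, 12 loci were placed in group I, 3 each in IIa and IIb, 7 in IIc, 5 in IId, 6 in IIe and 7 in III, and 11 named after proteins of other species were left unplaced. All 54 carried the same annotation of sequence-specific DNA binding and transcription factor activity. Scaffold positions were listed for 8 of them, and the other 46 were assembled loci listed without one.

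The most abundant locus was CSS014771, described only as a WRKY factor of Camellia sinensis, at a mean of 74.5 FPKM. It was followed by CSS022389 (WRKY17) at 51.7, CSS020651 (WRKY33) at 49.5, CSS044985 (WRKY7) at 47.02 and CSS031292 (WRKY20) at 40.1 FPKM. CSS031292 was among the steadiest, with 38.5, 39.2 and 34.6 FPKM in SCZ_NA and 50.1, 35.4 and 49.8 in SCZ_CA, and its highest group mean was 1.28 times its lowest. The WRKY loci summed to 348 to 800 FPKM in the SCZ_NA libraries, 654 to 1134 in SCZ_CA and 495 to 593 in SCZ_DA, and to 513 to 617, 1002 to 1306 and 751 to 944 in the matching YH9 groups. The high mean of CSS020651 came from the 6 CA libraries, none of which overlapped the other 12.

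**Figure D1:**
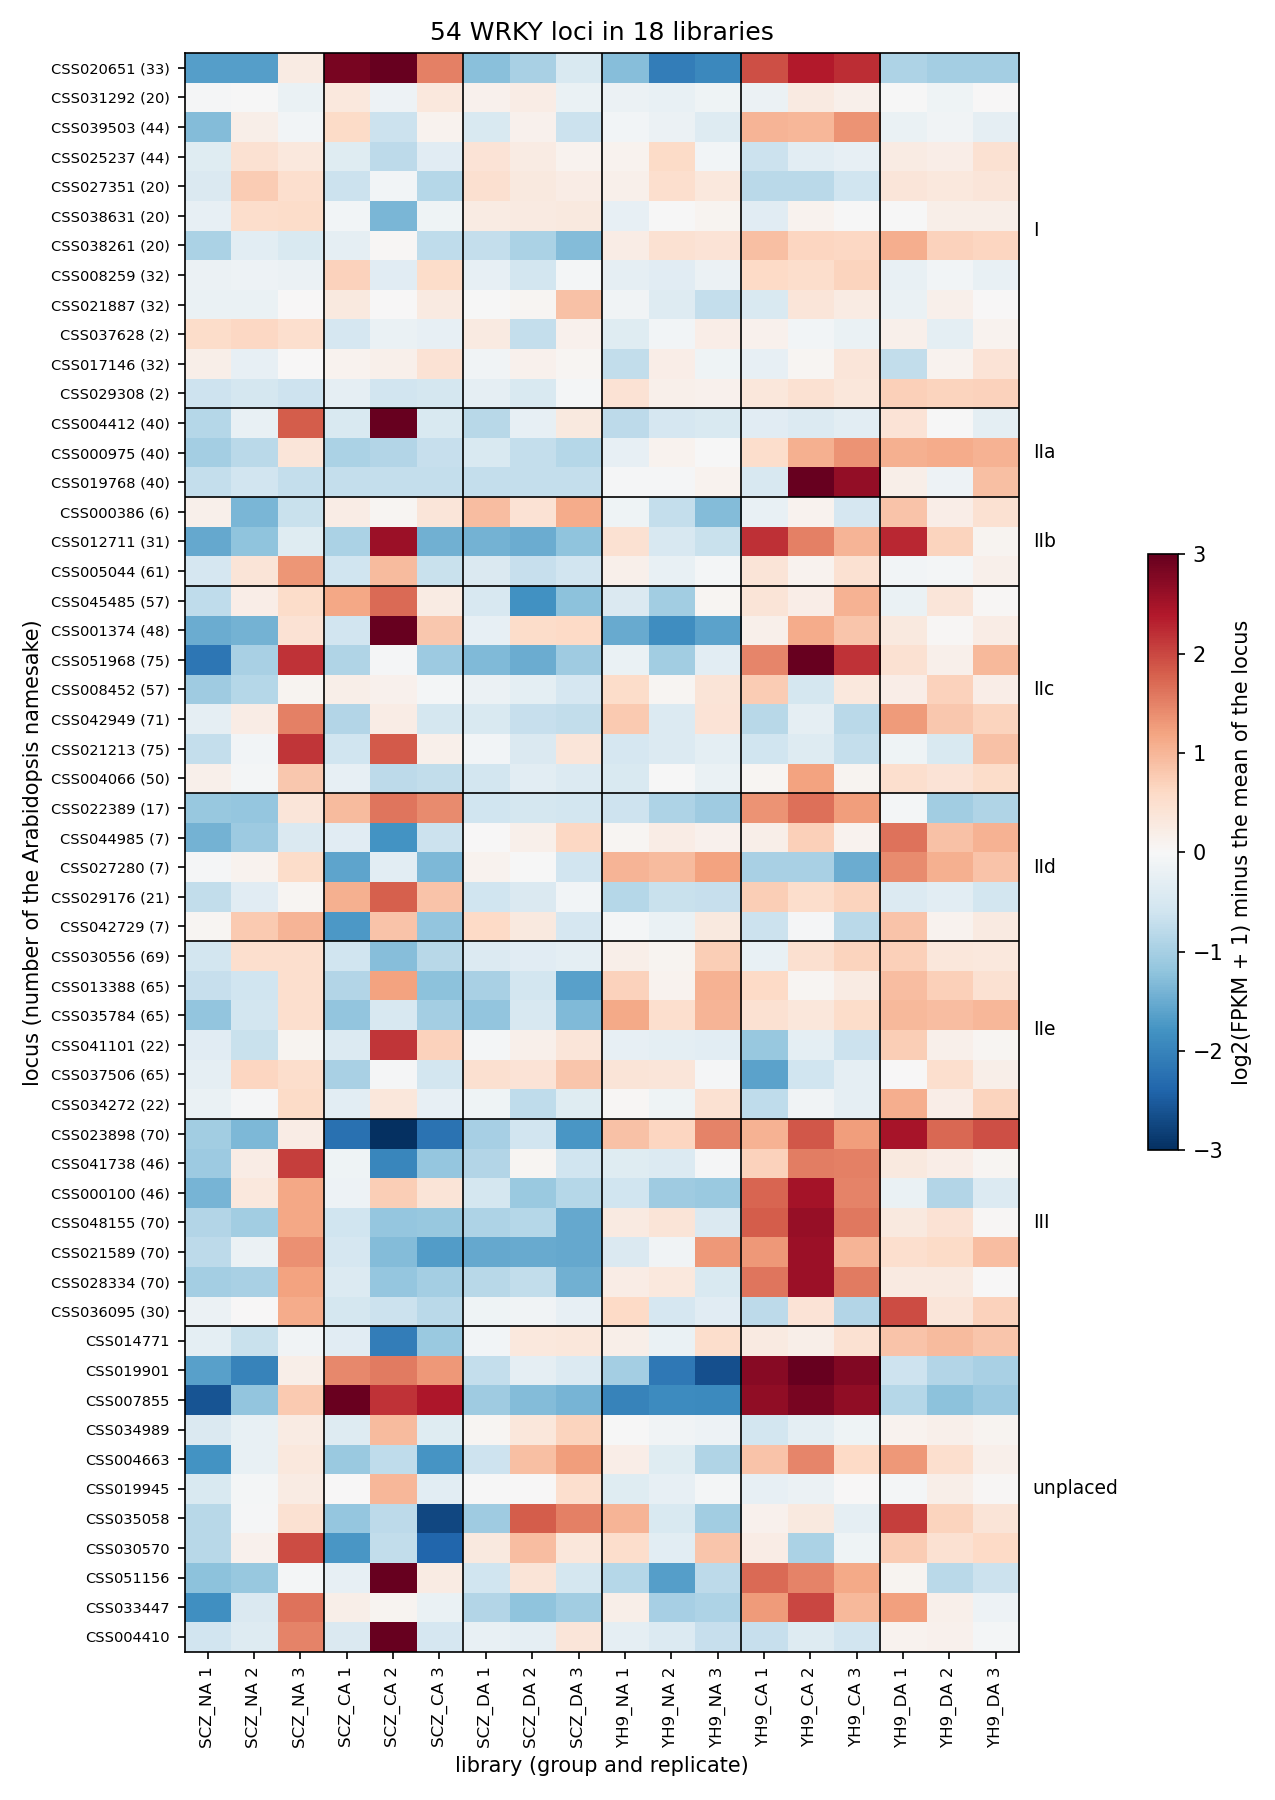
Each row is a WRKY locus and each column a library, with colour giving log2(FPKM + 1) minus the mean of the locus over the 18 libraries, cut at 3 either way, and rows ordered by WRKY group and mean level. The 3 CA columns of both cultivars are red at CSS020651, CSS019901 and CSS007855, SCZ_NA replicate 3 and SCZ_CA replicate 2 show red rows that their group does not share, and 6 of the 7 group III rows are red in all 3 YH9_CA libraries, while the group III rows are mostly blue in SCZ_CA.

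The comparison of CA with NA asked which WRKY loci changed over cold acclimation, in plants that were also older at CA. In both cultivars 7 loci rose, led by CSS020651 (WRKY33), CSS007855 (WRKY40 of Camellia sinensis) and CSS019901 (WRKY1b of Coffea arabica), and 1 fell, CSS027280 (WRKY7). In SCZ 10 of 54 loci rose (18.5%, against 15% of all loci) and 7 fell (13%, against 19.1%), with a median log2 fold change of -0.12 beside -0.06 over all loci. The sign of the SCZ median rested on single libraries, since it was 0.49 without SCZ_NA replicate 3, -0.70 without SCZ_CA replicate 2 and 0.25 without both. In YH9 12 rose (22.2%, against 11.7%) and 3 fell (5.56%, against 14.2%), with a median of 0.45 beside -0.01. A locus was called where edgeR's quasi-likelihood test gave a Benjamini-Hochberg adjusted p under 0.05 over the 29019 loci and the change was at least 2-fold. The share that rose in SCZ was close to that of all loci, and whether the shares of YH9 differed from theirs was not tested.

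The 7 loci that rose in both cultivars were 70% of those that rose in SCZ and 58.3% of those that rose in YH9. The overlap over all loci was not computed, so these shares are not read as particular to WRKY loci. All 7 rose in SCZ also without the 2 libraries that stood apart, whereas the 3 loci that rose in SCZ alone, CSS029308, CSS041101 and CSS045485, did not. In the following, ± after a log2 fold change is its standard error and ± after an FPKM value is the SD of 3 replicates.

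CSS020651 carries the name of WRKY33, which in Arabidopsis is phosphorylated by MPK3 and MPK6 and controls resistance to necrotrophic fungi and the synthesis of the phytoalexin camalexin. It was at 6.56, 6.63 and 27.4 FPKM in SCZ_NA and at 172, 199 and 67.05 in SCZ_CA (log2 fold change 3.58 ± 0.53, edgeR adjusted p = 9.66e-05). In YH9 it went from 8.83, 4.63 and 5.295 FPKM at NA to 90.99, 123 and 111 at CA (log2 fold change 4.06 ± 0.54, edgeR adjusted p = 7.34e-05). Every CA library was above every NA library of its cultivar, and the highest NA library was SCZ_NA replicate 3. The call was kept under each alternative tried in either cultivar, with log2 fold changes of 3.23 to 4.49 in SCZ when single libraries were left out.

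CSS007855 is described as WRKY40 of Camellia sinensis and was left unplaced, since such numbers follow other species. It need not match Arabidopsis WRKY40, which acts with WRKY18 and WRKY60 in limiting basal defence and in abscisic acid signalling. SCZ_NA held 0.856, 3.96 and 18.2 FPKM and SCZ_CA 86.7, 49.6 and 59.5 (log2 fold change 3.33 ± 0.64, edgeR adjusted p = 0.000848). YH9_NA held 1.78, 2.03 and 1.98 FPKM and YH9_CA 70.4, 79.3 and 69.7 (log2 fold change 5.21 ± 0.71, edgeR adjusted p = 8.7e-05). NA and CA did not overlap in either cultivar, and the 3 YH9 replicates lay within a narrow band at each stage. Without SCZ_NA replicate 3 and SCZ_CA replicate 2 the rise in SCZ was 5.13 on the log2 scale. SCZ_NA was above YH9_NA (log2 fold change 1.91 ± 0.62, edgeR adjusted p = 0.0358), a call lost without SCZ_NA replicate 3, YH9_NA replicate 1, YH9_NA replicate 2 or YH9_NA replicate 3 (without both libraries that stood apart, log2 fold change 0.28, edgeR adjusted p = 0.64).

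CSS019901, named after WRKY1b of coffee, was at 3.65, 2.63 and 15.2 FPKM in SCZ_NA and 38.03, 41.98 and 34.7 in SCZ_CA (log2 fold change 2.60 ± 0.59, edgeR adjusted p = 0.00277). Its YH9 values were 6.09, 2.29 and 1.32 FPKM at NA and 95.3, 145 and 97.7 at CA (log2 fold change 5.04 ± 0.66, edgeR adjusted p = 6.93e-05). All 3 YH9_CA libraries were above all 3 SCZ_CA libraries. The interaction of cultivar and stage, that is the SCZ change minus the YH9 change, was -2.44 ± 0.80 on the log2 scale and did not pass (edgeR adjusted p = 0.113).

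Group IId, whose Arabidopsis members carry a calmodulin-binding stretch, gave 2 of the 7. CSS022389 (WRKY17, in Arabidopsis a negative regulator of basal resistance to Pseudomonas together with WRKY11) was at 17.2, 16.98 and 50.8 FPKM in SCZ_NA and 77.02, 122 and 106 in SCZ_CA, and at 24.96, 20.3 and 18.1 in YH9_NA and 101, 126 and 95.2 in YH9_CA. Its changes were 2.03 ± 0.38 and 2.30 ± 0.38 on the log2 scale (edgeR adjusted p = 0.000635 and 0.000405). SCZ_NA replicate 3 was again the closest to the CA libraries, without reaching them. CSS029176 (WRKY21) was at 8.44, 11.5 and 15.5 FPKM in SCZ_NA and 32.2, 53.8 and 27.8 in SCZ_CA, and at 7.82, 8.98 and 8.76 in YH9_NA and 25.5, 21.8 and 24.1 in YH9_CA. It rose by the smallest step of the 7 but with the smallest error, 1.84 ± 0.23 in SCZ and 1.45 ± 0.23 in YH9 (edgeR adjusted p = 3.08e-05 and 0.000294). Both loci kept the call in both cultivars under every alternative tried.

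The other 2 rested in SCZ largely on 1 library. CSS001374 (WRKY48, in Arabidopsis a negative regulator of basal defence) was at 2.45, 2.59 and 12.002 FPKM in SCZ_NA and 5.51, 119 and 16.01 in SCZ_CA, and at 2.401, 1.65 and 2.19 in YH9_NA and 9.76, 19.8 and 16.04 in YH9_CA. SCZ_CA replicate 1 lay below SCZ_NA replicate 3, whereas the YH9 groups did not overlap. The change in SCZ was 3.21 ± 0.85 (edgeR adjusted p = 0.00714), was lost without SCZ_CA replicate 2 alone (1.22) and was 2.25 without both libraries (edgeR adjusted p = 0.00499), against 2.83 ± 0.84 in YH9 (edgeR adjusted p = 0.0179), lost without YH9_NA replicate 2 or YH9_NA replicate 3. CSS051156, named after WRKY31 of poplar, was at 1.07, 1.21 and 3.68 FPKM in SCZ_NA and 3.13, 56.4 and 4.81 in SCZ_CA, and at 1.68, 0.563 and 1.83 in YH9_NA and 14.8, 12.6 and 9.80 in YH9_CA. Its change in SCZ of 3.58 ± 0.91 was likewise lost without SCZ_CA replicate 2 (1.24) and was 1.93 without both (edgeR adjusted p = 0.0239). In YH9 it rose by 3.16 ± 0.90 (edgeR adjusted p = 0.0138), a call lost without YH9_NA replicate 2.

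**Figure D2:**
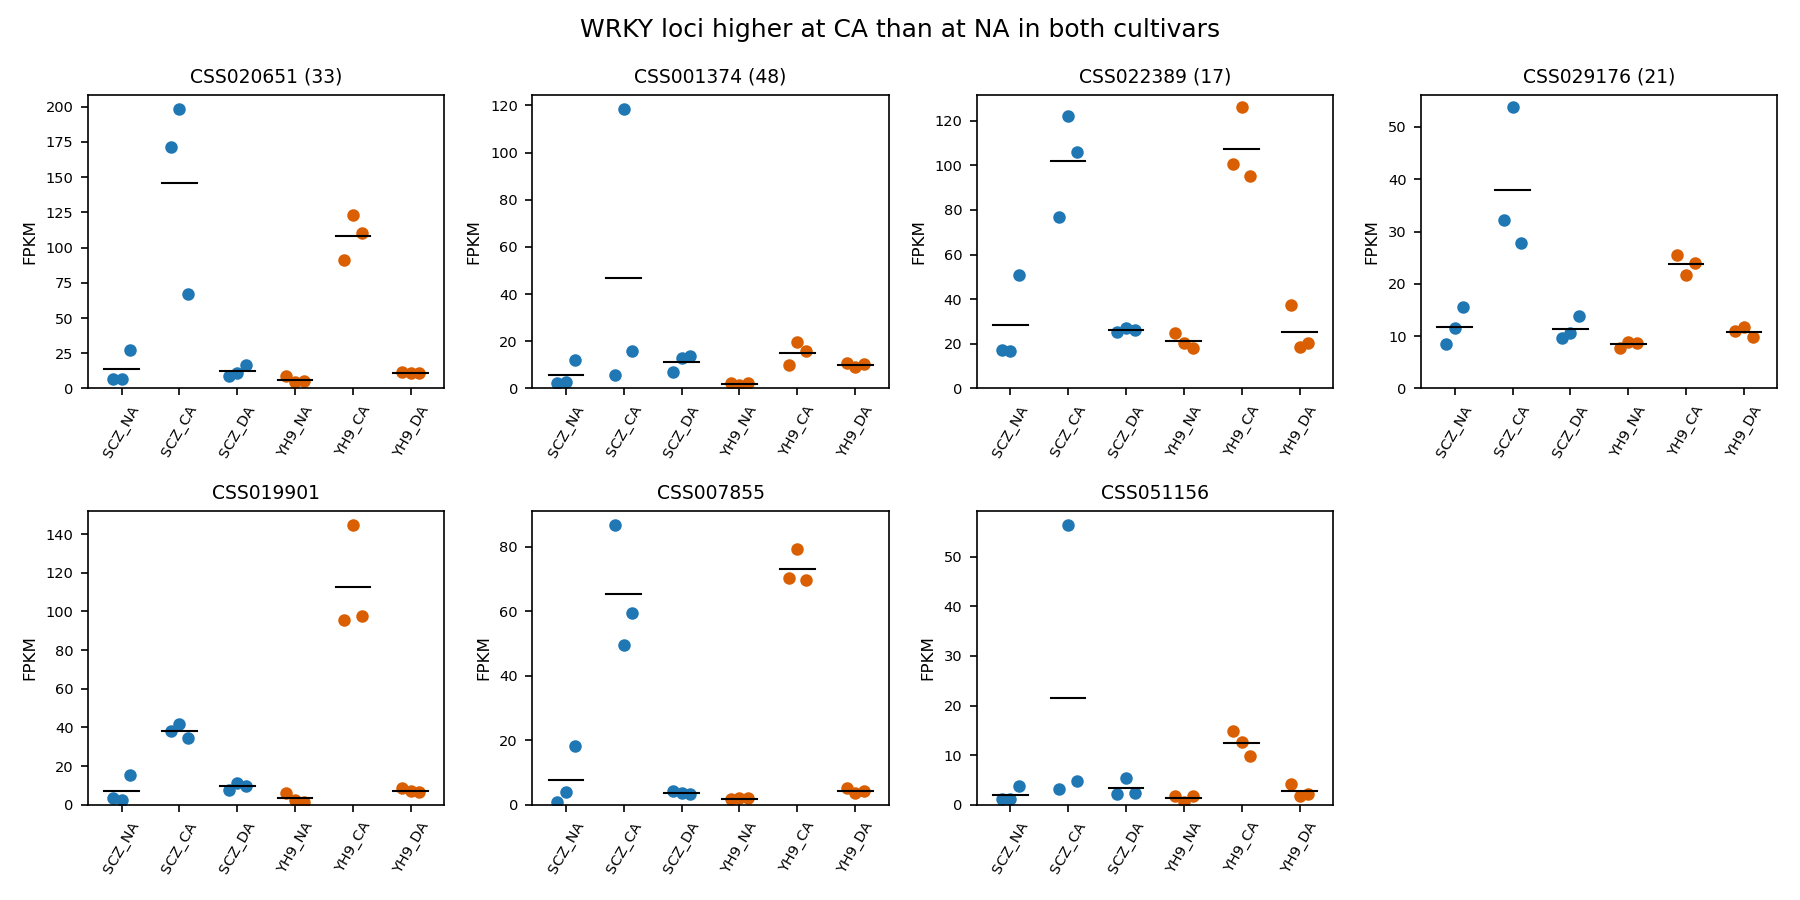
FPKM (vertical axis, from 0) of the 7 WRKY loci higher at CA than at NA in both cultivars, in the 6 groups (SCZ blue, YH9 orange), with a point for each library in the order of replicates 1 to 3 and a black line at the group mean. The 3 CA points stand above the NA and DA points of their cultivar in CSS020651, CSS022389, CSS029176, CSS019901 and CSS007855, whereas in CSS001374 and CSS051156 the SCZ_CA mean is drawn up by replicate 2 at 119 and 56.4 FPKM.

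Among the loci that fell, CSS027280 (WRKY7, a calmodulin-binding member of group IId in Arabidopsis) fell in both cultivars. It was at 17.82, 19.7 and 27.2 FPKM in SCZ_NA and 5.43, 14.3 and 6.53 in SCZ_CA, and at 38.1, 36.04 and 43.5 in YH9_NA and 8.78, 8.695 and 5.82 in YH9_CA. No CA library reached an NA library of its cultivar. The changes were -1.16 ± 0.32 and -2.36 ± 0.33 on the log2 scale (edgeR adjusted p = 0.00889 and 0.000108), and the call in SCZ was lost without SCZ_CA replicate 1. Of the other WRKY7 loci, CSS044985 was at 20.6 ± 7.699 FPKM in SCZ_NA and 22.6 ± 10.6 in SCZ_CA and passed in neither cultivar. CSS042729 did not pass either, with 0.222, 6.27 and 0.781 FPKM in the SCZ_CA libraries.

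In YH9 the other 2 loci that fell were CSS027351 (WRKY20, 16.3, 20.99 and 18.3 FPKM at NA and 7.91, 7.81 and 9.24 at CA) and CSS037506 (WRKY65, 7.19, 7.04 and 5.14 at NA and 1.06, 3.12 and 4.14 at CA). The first changed by -1.19 ± 0.22 and the second by -1.27 ± 0.42 on the log2 scale (edgeR adjusted p = 0.000785 and 0.0293). Both groups were separate at each locus, but the second call was lost when any of 4 YH9 libraries was left out. In SCZ the other 6 that fell were 3 of group III, described in their own account, with CSS030570, CSS037628 and CSS004066. CSS030570, named after WRKY85 of cassava, was at 4.45, 9.65 and 36.6 FPKM in SCZ_NA and 1.89, 4.78 and 0.866 in SCZ_CA (log2 fold change -2.56 ± 0.66, edgeR adjusted p = 0.00617). The call was lost without SCZ_NA replicate 3 alone (-1.38) and kept without both libraries that stood apart (-2.22). The SCZ groups overlapped, since SCZ_NA replicate 1 lay below SCZ_CA replicate 2. CSS037628 (WRKY2, which in Arabidopsis acts in pollen and in the polarity of the zygote), on scaffold 8716 at 100187 to 106210, fell from 4.72, 5.01 and 4.49 FPKM to 1.76, 2.39 and 2.297 (edgeR adjusted p = 0.03), at a log2 fold change of -1.003 ± 0.348, just past the 2-fold limit, and the call was lost without SCZ_NA replicate 1, SCZ_CA replicate 1 or SCZ_CA replicate 2. It was also lost without both libraries that stood apart. CSS004066 (WRKY50) is described with the comparison of the cultivars, and its SCZ values went from 1.02, 0.758 and 2.18 FPKM to 0.542, 0.0641 and 0.0968 (log2 fold change -2.36 ± 0.74, edgeR adjusted p = 0.0181), a call lost without SCZ_NA replicate 3, SCZ_CA replicate 2 or SCZ_CA replicate 3, at -1.49 without both libraries (edgeR adjusted p = 0.162).

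The loci that rose in SCZ alone were CSS045485 (WRKY57, in Arabidopsis a factor in drought tolerance), CSS041101 (WRKY22, downstream of the flagellin-triggered kinase cascade in Arabidopsis) and CSS029308 (WRKY2). CSS045485 was at 15.1, 30.1 and 39.01 FPKM in SCZ_NA and 59.5, 87.8 and 30.99 in SCZ_CA, and CSS041101 at 4.26, 3.19 and 5.98 and 4.01, 28.2 and 9.76. The NA and CA libraries overlapped at both, and without the 2 libraries that stood apart their changes were 1.12 and 0.99 (edgeR adjusted p = 0.0809 and 0.132). CSS029308 held 0, 0.0723 and 0 FPKM in SCZ_NA and 0.275, 0.0399 and 0.0651 in SCZ_CA, all below 1 FPKM, and its call was lost when any of 14 single libraries was left out.

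In YH9 alone 5 loci rose, of which 3 belong to group III. CSS039503 (WRKY44, known in Arabidopsis as TTG2, which acts in trichome and seed coat development) was at 33.3, 30.6 and 26.3 FPKM in YH9_NA and 72.4, 70.8 and 90.4 in YH9_CA (log2 fold change 1.33 ± 0.32, edgeR adjusted p = 0.00485). In SCZ the same locus held 13.6, 39.99 and 32.8 FPKM at NA and 53.01, 21.8 and 37.9 at CA, with overlapping groups (log2 fold change 0.59 ± 0.31, edgeR adjusted p = 0.139). The interaction at CSS039503 was -0.74 ± 0.44 (edgeR adjusted p = 0.389), so a difference between the cultivars in this change was not shown. CSS051968 (WRKY75, a factor in phosphate starvation and leaf senescence in Arabidopsis) was at 3.47, 1.495 and 3.101 FPKM in YH9_NA and 13.2, 47.6 and 21.9 in YH9_CA (log2 fold change 3.31 ± 1.08, edgeR adjusted p = 0.0283), a call lost without YH9_NA replicate 1, YH9_NA replicate 2, YH9_NA replicate 3 or YH9_CA replicate 2. Its SCZ_NA libraries spread over 0.138, 1.601 and 21.98 FPKM and SCZ_CA over 1.74, 4.002 and 1.41, and the interaction was -4.80 ± 1.48 (edgeR adjusted p = 0.0944).

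**Figure D3:**
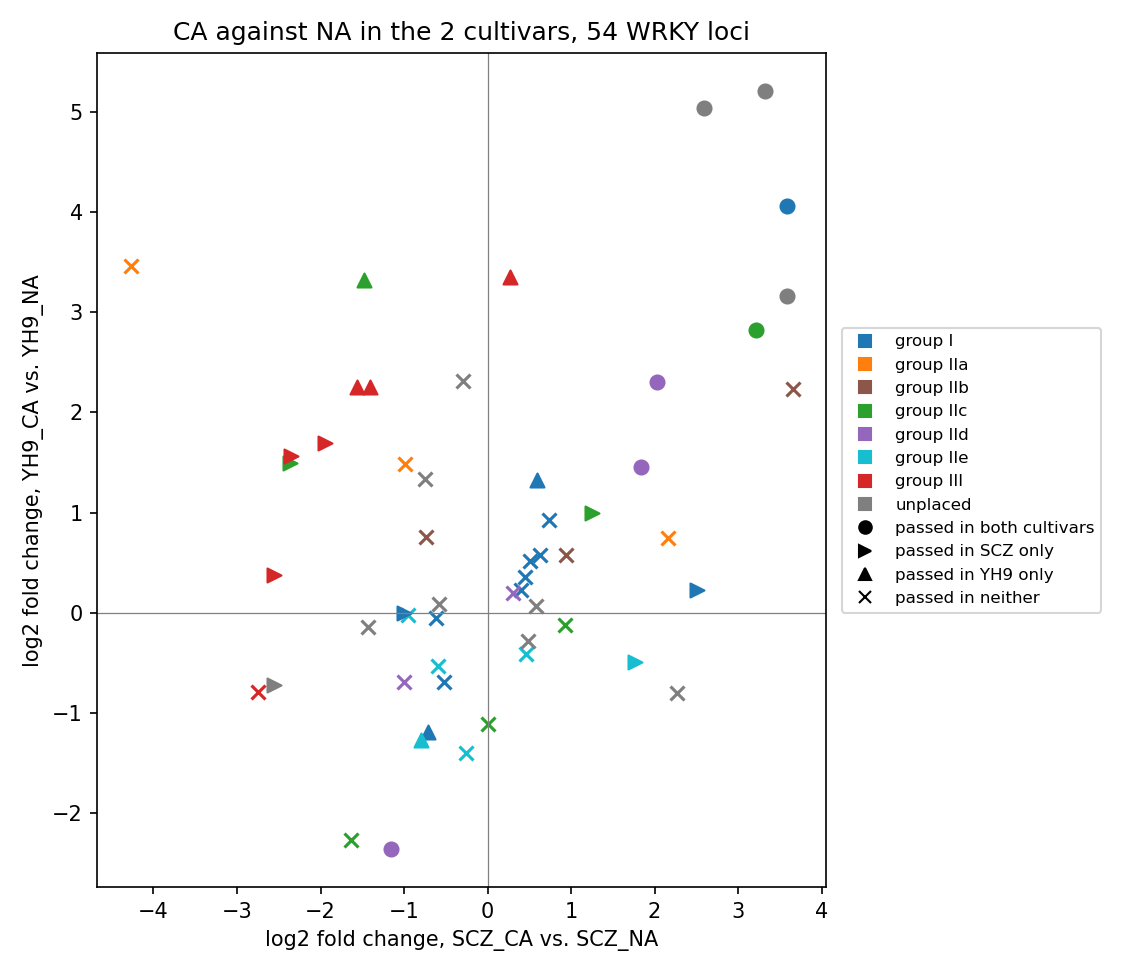
Log2 fold change of CA against NA in SCZ (horizontal axis) and in YH9 (vertical axis) for the 54 WRKY loci, with colour for the WRKY group and the marker for the cultivar in which the locus passed the test. The 7 loci that rose in both stand in the upper right, CSS027280 in the lower left, and 6 of the 7 group III loci are above 0 in YH9 while 6 of the 7 are below 0 in SCZ.

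Group III stood out after its values were seen and is given as a description. It held 4 loci named after WRKY70 (CSS023898, CSS048155, CSS021589 and CSS028334), 2 after WRKY46 (CSS041738 and CSS000100) and 1 after WRKY30 (CSS036095). Reads may be shared between CSS048155 and CSS028334, which ran together, so counts of group III loci may hold the same signal more than once. In Arabidopsis WRKY70 sits between salicylic acid and jasmonate signalling, and WRKY46 acts with WRKY70 and WRKY53 in defence. From NA to CA 3 of the 7 fell and 0 rose in SCZ, against 19.1% and 15% of all loci. The median log2 fold change was -1.95 beside -0.12 over the WRKY loci. In YH9 3 rose and 0 fell, against 11.7% and 14.2% of all loci, at a median of 1.69 beside 0.45. In the direct comparison of the cultivars at CA 6 of the 7 were lower in SCZ, against 14.4% of all loci, at a median of -3.64. Without both SCZ libraries that stood apart 1 of the 7 fell in SCZ and the median was -0.17, beside 0.25 over the WRKY loci. When single libraries were left out, 1 to 4 loci fell in SCZ, 1 to 4 rose in YH9 and 4 to 6 were lower in SCZ at CA. The lowest counts came without any YH9_NA library or YH9_CA replicate 2 in YH9, where 1 locus rose, without SCZ_NA replicate 3, SCZ_CA replicate 2 or SCZ_CA replicate 3 in SCZ, where 1 locus fell, and without SCZ_CA replicate 3 in the comparison at CA, where 4 were lower.

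CSS023898 was the most abundant of them. It was at 4.55, 3.47 and 12.3 FPKM at NA, 1.41, 0.145 and 1.45 at CA and 4.69, 6.62 and 2.38 at DA in SCZ. In YH9 it was at 19.96, 16.9 and 30.98 FPKM at NA, 22.5, 40.7 and 26.04 at CA and 61.9, 36.8 and 42.8 at DA. Every YH9 library was above every SCZ library, and SCZ_CA was below SCZ_NA and SCZ_DA. The fall in SCZ was -2.56 ± 0.65 on the log2 scale (edgeR adjusted p = 0.00542) and -1.43 without both libraries that stood apart (edgeR adjusted p = 0.0264). YH9 changed by 0.38 ± 0.60 (edgeR adjusted p = 0.676). The difference SCZ_CA minus YH9_CA was -4.65 ± 0.71 (edgeR adjusted p = 0.000192), and it was kept under each alternative tried.

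CSS048155 and CSS028334 share 1 description and ran together, with a Pearson correlation of 0.997 across the 18 libraries on log2(FPKM + 1) and a ratio of 0.662 to 1.07, so reads may be shared between them and their separate values are uncertain. CSS048155 was at 0.915, 0.718 and 6.91 FPKM in SCZ_NA and 1.32, 0.577 and 0.603 in SCZ_CA, and at 3.21, 3.57 and 1.59 in YH9_NA and 11.3, 20.5 and 9.55 in YH9_CA. The YH9 groups were separate, and SCZ_NA replicate 3 alone among the SCZ libraries was above 5 FPKM. It rose in YH9 (log2 fold change 2.25 ± 0.73, edgeR adjusted p = 0.0269, lost without YH9_NA replicate 1, YH9_NA replicate 2, YH9_NA replicate 3 or YH9_CA replicate 2) and was lower in SCZ_CA than in YH9_CA (log2 fold change -3.85 ± 0.78, edgeR adjusted p = 0.00165). For CSS028334 the same differences were 2.25 ± 0.79 and -3.64 ± 0.84, the first lost without YH9_NA replicate 1, YH9_NA replicate 2, YH9_NA replicate 3, YH9_CA replicate 1 or YH9_CA replicate 2.

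The remaining WRKY70 locus, CSS021589, was at 0.988, 2.04 and 7.88 FPKM at NA, 1.44, 0.397 and 0.0810 at CA and 0.196, 0.208 and 0.199 at DA in SCZ. Its YH9 values were 1.53, 2.202 and 7.54 FPKM at NA, 7.54, 19.3 and 5.99 at CA and 3.93, 4.103 and 5.58 at DA. SCZ_CA replicate 1 lay within the SCZ_NA range, and the change of -2.36 ± 0.85 (edgeR adjusted p = 0.0363) was lost without SCZ_NA replicate 3, SCZ_CA replicate 2 or SCZ_CA replicate 3, and came to -0.95 without the 2 libraries that stood apart (edgeR adjusted p = 0.445). The difference SCZ_CA minus YH9_CA was -3.97 ± 0.91 on the log2 scale (edgeR adjusted p = 0.00372).

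Of the WRKY46 loci, CSS000100 was at 1.12, 5.96 and 11.5 FPKM in SCZ_NA and 4.004, 8.29 and 6.38 in SCZ_CA, with overlapping values. In YH9 it went from 2.72, 1.67 and 1.59 FPKM at NA to 17.76, 30.5 and 14.7 at CA (log2 fold change 3.35 ± 0.60, edgeR adjusted p = 0.000723). This was the largest rise of group III, and all 3 YH9_CA libraries were above all other libraries of the series. SCZ_CA was lower than YH9_CA by a call that was lost when any of 14 single libraries was left out. CSS041738 was at 2.51, 7.67 and 30.2 FPKM in SCZ_NA and 5.802, 0.915 and 2.33 in SCZ_CA, and at 4.77, 4.64 and 6.26 in YH9_NA and 10.9, 20.6 and 20.3 in YH9_CA. Its fall in SCZ of -1.95 ± 0.67 (edgeR adjusted p = 0.0288) was lost without SCZ_NA replicate 3, SCZ_CA replicate 2 or SCZ_CA replicate 3 and was -0.17 without both libraries (edgeR adjusted p = 0.798), whereas YH9 then passed at 1.69 (edgeR adjusted p = 0.00322). CSS036095 (WRKY30) passed in no comparison, at 0.316, 0.218 and 0.0766 FPKM in SCZ_CA and 0.0974, 1.51 and 0.0349 in YH9_CA.

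The interaction of cultivar and stage tested whether the change from NA to CA differed between the cultivars. No WRKY locus passed in edgeR, where 1.25% of all loci passed with the larger change in SCZ and 1.27% with the smaller. An unadjusted p under 0.05 was reached by 17 of the 54, and by 5444 of the 29019 loci in all. The 17 included 6 of the 7 group III loci, with edgeR adjusted p-values of 0.0531 to 0.0905. The smallest of these was at CSS000100, where the SCZ change was lower by 3.08 ± 0.80 on the log2 scale (interaction -2.51 without both libraries that stood apart, edgeR adjusted p = 0.11). DESeq2 passed 1 WRKY locus with the larger and 10 with the smaller change in SCZ, 6 of the 10 in group III. Over the 29019 loci it passed 1166 and 1165. The median interaction of group III was -3.64, -2.29 without SCZ_NA replicate 3 and -1.86 without both libraries that stood apart. With single libraries left out, 4 group III loci passed in edgeR without SCZ_NA replicate 1 and 3 without SCZ_CA replicate 1. Without SCZ_NA replicate 2 or SCZ_DA replicate 3, 1 passed, and 0 otherwise. A difference between the cultivars in the change itself therefore did not pass in edgeR with all libraries. At CA 6 of the 7 loci were lower in SCZ also without both libraries that stood apart (median -3.35).

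**Figure D4:**
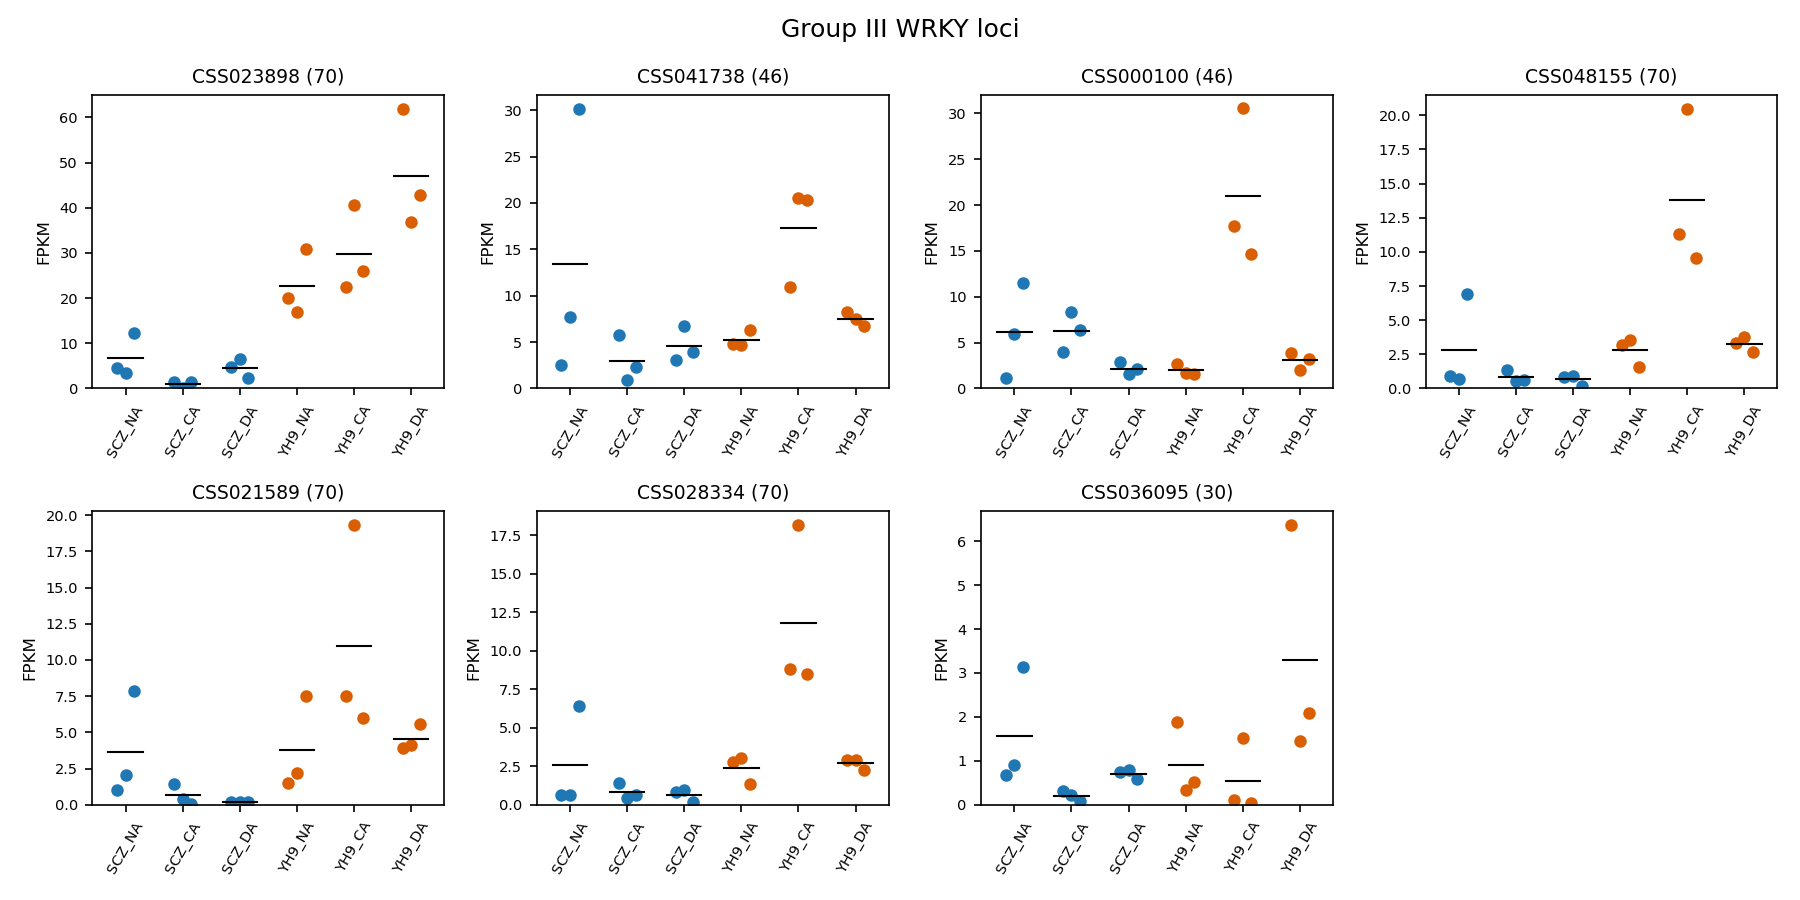
FPKM (vertical axis, from 0) of the 7 group III loci in the 6 groups (SCZ blue, YH9 orange), with a point for each library in the order of replicates 1 to 3 and a black line at the group mean. The YH9_CA points stand above the SCZ_CA points in 6 of the 7 panels, and SCZ_NA replicate 3 is the highest SCZ point in all of them.

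De-acclimation was compared with CA within each cultivar. In SCZ 5 of 54 loci were higher at DA (9.26%, against 15.6% of all loci) and 10 lower (18.5%, against 13.5%), and in YH9 3 were higher (5.56%, against 13.1%) and 11 lower (20.4%, against 10.4%). The median log2 fold change was -0.51 in SCZ and -0.07 in YH9, beside 0.01 and 0.02 over all loci. The SCZ median rested on SCZ_CA replicate 2, without which it was 0.01. The CA libraries enter this comparison and that with NA, so a locus high at CA can pass in both.

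The loci lower at DA in both cultivars were 7, CSS020651, CSS007855, CSS019901, CSS022389, CSS029176, CSS051156 and CSS000100. The last 2 were less firm. CSS051156 in SCZ was lost without SCZ_CA replicate 2, SCZ_DA replicate 1 or SCZ_DA replicate 3 and came to -0.52 without both libraries that stood apart (edgeR adjusted p = 0.476), and in YH9 it was lost when any of 13 single libraries was left out. CSS000100 in SCZ was lost without SCZ_CA replicate 2, SCZ_CA replicate 3, SCZ_DA replicate 2 or SCZ_DA replicate 3. CSS020651 (WRKY33) stood at 9.04, 11.2 and 16.5 FPKM in SCZ_DA and 11.7, 10.7 and 10.9 in YH9_DA (-3.72 ± 0.53 and -3.44 ± 0.52 against CA). CSS007855 (WRKY40 of Camellia sinensis) stood at 4.37, 3.52 and 3.26 and 5.22, 3.78 and 4.23 FPKM (-4.31 ± 0.67 and -4.20 ± 0.67). Both loci lay far below their CA values in all 6 libraries, and all 3 YH9_DA libraries were above all 3 YH9_NA libraries. CSS022389 (WRKY17) was at 25.4, 26.96 and 26.4 and 37.5, 18.4 and 20.4 FPKM, and CSS019901 at 7.75, 11.1 and 9.87 and 8.48, 6.93 and 6.34. CSS027280 (WRKY7) was higher at DA in YH9, at 49.96, 39.1 and 33.8 FPKM (log2 fold change 2.24 ± 0.33, edgeR adjusted p = 0.000194), and CSS045485 (WRKY57) was lower at DA in SCZ, at 18.5, 6.74 and 10.5 (log2 fold change -2.46 ± 0.44, edgeR adjusted p = 0.000541). In SCZ alone CSS001374 (WRKY48) and CSS012711 (WRKY31) were lower too, both with a single high CA library, and neither without SCZ_CA replicate 2. The call of CSS001374 was lost when any of 13 single libraries was left out. That of CSS012711 was also lost without SCZ_DA replicate 1 or SCZ_DA replicate 2. In YH9 alone CSS039503 (WRKY44), CSS008259 (WRKY32), CSS048155 and CSS028334 (both WRKY70) were lower at DA. CSS039503 went to 30.5, 32.5 and 28.9 FPKM (log2 fold change -1.49 ± 0.32, edgeR adjusted p = 0.00258) and CSS008259 from 10.7, 10.1 and 11.2 to 5.598, 6.25 and 5.63 (log2 fold change -1.02 ± 0.27, edgeR adjusted p = 0.0106). The first of these was kept under each alternative and the second was lost without YH9_CA replicate 3, YH9_DA replicate 1 or YH9_DA replicate 3. The call of CSS048155 was lost without YH9_CA replicate 2, YH9_DA replicate 1, YH9_DA replicate 2 or YH9_DA replicate 3, and that of CSS028334 was lost without YH9_CA replicate 1, YH9_CA replicate 2, YH9_DA replicate 1, YH9_DA replicate 2 or YH9_DA replicate 3. CSS027351 (WRKY20) was higher at DA in YH9, at 18.97, 18.3 and 18.9 FPKM (log2 fold change 1.02 ± 0.22, edgeR adjusted p = 0.00253), lost without YH9_CA replicate 1 or YH9_CA replicate 2.

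In SCZ the loci higher at DA than at CA were CSS023898 (WRKY70), CSS014771, CSS004663, CSS035058 and CSS030570. CSS014771, the most abundant locus, was at 52.98, 15.1 and 30.5 FPKM in SCZ_CA and 63.04, 83.2 and 84.7 in SCZ_DA (log2 fold change 1.05 ± 0.34, edgeR adjusted p = 0.0237). CSS004663, named after WRKY21 of poplar, was at 4.86, 6.47 and 2.72 FPKM in SCZ_CA and 7.25, 22.7 and 29.3 in SCZ_DA (log2 fold change 1.91 ± 0.57, edgeR adjusted p = 0.0168). Both pairs of groups were separate. The first call was lost without SCZ_CA replicate 2, SCZ_DA replicate 2 or SCZ_DA replicate 3, and was 0.703 without both libraries that stood apart (edgeR adjusted p = 0.0701). The second was lost without SCZ_CA replicate 3 or SCZ_DA replicate 3. CSS035058, named after WRKY53 of poplar, spread over 3.71, 33.4 and 27.1 FPKM in SCZ_DA against 3.41, 4.74 and 0.491 in SCZ_CA, and the groups overlapped (log2 fold change 2.75 ± 0.86, edgeR adjusted p = 0.0207). This call was lost without SCZ_CA replicate 3, SCZ_DA replicate 2 or SCZ_DA replicate 3, that of CSS023898 was lost without SCZ_DA replicate 1 or SCZ_DA replicate 2, and that of CSS030570 was lost without SCZ_CA replicate 1 or SCZ_CA replicate 3.

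DA against NA asked how far the leaves had returned to their starting levels, and the age of the plants, 21 days more at DA, cannot be told apart from the treatment. In SCZ 0 WRKY loci were higher (1.45% of all loci) and 1 was lower (1.58%), CSS021589 (WRKY70), at 0.196, 0.208 and 0.199 FPKM against 0.988, 2.04 and 7.88 (log2 fold change -4.13 ± 0.94, edgeR adjusted p = 0.0284). This call was lost without SCZ_NA replicate 3, SCZ_DA replicate 1, SCZ_DA replicate 2 or SCZ_DA replicate 3, and also without both libraries that stood apart. In SCZ 3 WRKY loci were higher and 15 lower at an unadjusted p under 0.05, which 5749 of the 29019 loci reached in all. DESeq2 passed 2 WRKY loci higher and 6 lower, and 780 and 1085 over all loci. In YH9 0 loci were higher (0.0551% of all loci) and 0 lower (0.32%) in edgeR, where the lowest adjusted p was 0.396. DESeq2 also passed 0, against 170 higher and 265 lower over all loci. An unadjusted p under 0.05 in edgeR was reached by 4 WRKY loci, and by 2832 of the 29019 in all. Of the 4 WRKY loci, CSS044985 (WRKY7) was at 42.1, 46.9 and 43.8 FPKM in YH9_NA and 125, 73.9 and 82.9 in YH9_DA, and CSS001374 (WRKY48) at 2.401, 1.65 and 2.19 and 10.8, 8.91 and 10.2. Neither pair of groups overlapped, so a difference smaller than the test could pass is not shown to be absent. In YH9 19 of the 54 loci had all DA libraries above all NA libraries (35.2%, against 24.4% of all loci), and 0 had them all below (against 7.05%).

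The cultivars were also compared at each stage, as SCZ relative to YH9. Reads of both cultivars were mapped to the genome of Shuchazao, and the part of this in any difference between the cultivars was not tested. At NA 1 WRKY locus was higher in SCZ (1.85%, against 9.9% of all loci) and 4 lower (7.41%, against 9.29%). At CA 3 were higher (5.56%, against 12.8%) and 15 lower (27.8%, against 14.4%). At DA 0 were higher in edgeR (against 11.4% of all loci, with 0 at an unadjusted p under 0.05 and 0 in DESeq2) and 11 lower (20.4%, against 12.6%). Without the 2 libraries that stood apart 9, 18 and 16 WRKY loci were lower in SCZ at NA, CA and DA and 0, 1 and 0 higher. Over the 29019 loci 2765, 4068 and 3930 were then lower and 2834, 3496 and 3431 higher. Since these 2 libraries were singled out as high at the WRKY loci, leaving them out tends by construction to lower SCZ there at NA and CA. The median log2 difference was 0.17 at NA, -0.09 at CA and -0.32 at DA, beside 0.03 at each stage over all loci. It turned to -0.16 at NA without SCZ_NA replicate 3, and was -0.59 at CA without SCZ_CA replicate 2 and -0.60 without both libraries.

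Among the loci lower in SCZ at NA, CSS038261 (WRKY20) was at 3.81, 6.44 and 5.74 FPKM in SCZ_NA against 9.74, 11.6 and 11.4 in YH9_NA, and at 4.61, 3.82 and 2.74 in SCZ_DA against 18.7, 14.04 and 13.4 in YH9_DA. The cultivars were separate at both stages (log2 differences -1.02 ± 0.22 and -1.87 ± 0.23, edgeR adjusted p = 0.00313 and 2.8e-05), the first call lost without SCZ_NA replicate 1 or YH9_NA replicate 2. CSS035784 (WRKY65) was lower in SCZ at all 3 stages. It was at 2.002, 3.65 and 8.7005 FPKM at NA, 2.01, 3.87 and 2.37 at CA and 2.01, 3.89 and 1.74 at DA in SCZ, and at 13.9, 8.64 and 12.7, 8.41, 7.64 and 8.98 and 12.5, 12.03 and 12.6 in the matching YH9 groups. SCZ_NA replicate 3 alone among the SCZ libraries reached the YH9 values of its stage, and the differences were -1.33 ± 0.41, -1.39 ± 0.41 and -2.12 ± 0.42 (edgeR adjusted p = 0.0286, 0.0176 and 0.00142). The call at NA was lost without SCZ_NA replicate 1, SCZ_NA replicate 2, YH9_NA replicate 1 or YH9_NA replicate 3, that at CA was lost without SCZ_CA replicate 1 or SCZ_CA replicate 3, and that at DA was kept under each alternative. CSS029308 (WRKY2), on scaffold 8336 at 195407 to 200822, was at 1.06, 0.715 and 0.692 FPKM in YH9_NA against 0, 0.0723 and 0 in SCZ_NA, low in both. CSS044985 (WRKY7) was at 14.3, 18.3 and 29.2 FPKM in SCZ_NA against 42.1, 46.9 and 43.8 in YH9_NA (log2 fold change -1.09 ± 0.34, edgeR adjusted p = 0.0316), and the call was lost without SCZ_NA replicate 1, SCZ_NA replicate 2, YH9_NA replicate 1, YH9_NA replicate 2 or YH9_NA replicate 3.

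Of the 3 group IIa loci, all named after WRKY40, 2 were lower in SCZ at CA and DA. CSS019768 had 0, 8 and 0 estimated counts in SCZ_NA and 0 in all 6 SCZ_CA and SCZ_DA libraries, while the YH9 libraries had 34, 56 and 58 at NA, 10, 949 and 588 at CA and 68, 31 and 124 at DA. Against a floor of 3 counts over the group, YH9_CA with its libraries pooled was at least 563-fold higher than SCZ_CA, and YH9_DA at least 66.1-fold higher than SCZ_DA. The pooled YH9_CA value came mostly from replicates 2 and 3. The SCZ libraries alone could not meet the FPKM minimum, so the locus was admitted through YH9 libraries where it was high. Its difference between the cultivars is given as a description. YH9_CA replicate 1 was below every other YH9 library, and CA against NA within YH9 did not pass (edgeR adjusted p = 0.0544). CSS000975, on scaffold 736 at 1171624 to 1179594, was at 0.2896, 0.351 and 0.545 FPKM in SCZ_CA against 2.58, 4.22 and 5.32 in YH9_CA, and at 0.796, 0.515 and 0.364 in SCZ_DA against 4.18, 4.33 and 4.11 in YH9_DA. Its differences were -3.05 ± 0.66 and -2.70 ± 0.65 with no overlap (edgeR adjusted p = 0.00246 and 0.00524).

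Of the 3 loci higher in SCZ at CA, the first 2 described here rested on SCZ_CA replicate 2. CSS004412 (WRKY40) was at 0.413, 24.6 and 0.418 FPKM in SCZ_CA against 0.549, 0.474 and 0.562 in YH9_CA, and CSS004410, named after WRKY18 of Vitis amurensis, was at 0.192, 15.8 and 0.133 against 0, 0.238 and 0.0743. A single library of 3 was high at each, and without both libraries that stood apart the differences were -0.11 and 0.79 on the log2 scale (edgeR adjusted p = 0.941 and 0.673). CSS041101 (WRKY22) was at 4.01, 28.2 and 9.76 FPKM in SCZ_CA against 2.01, 4.44 and 3.23 in YH9_CA, and still passed without both libraries (1.38, edgeR adjusted p = 0.029).

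Other loci lower in SCZ at CA were CSS051968 (WRKY75), at 1.74, 4.002 and 1.41 FPKM against 13.2, 47.6 and 21.9, and CSS004663, at 4.86, 6.47 and 2.72 against 22.001, 33.9 and 18.2. Both pairs of groups were separate (log2 differences -3.33 ± 1.08 and -2.22 ± 0.58, edgeR adjusted p = 0.0275 and 0.00839), the first call lost without SCZ_CA replicate 1, SCZ_CA replicate 3 or YH9_CA replicate 2. CSS030556 (WRKY69), at 23.05, 13.9 and 19.4 FPKM in SCZ_CA against 29.9, 49.6 and 56.6 in YH9_CA, and CSS014771, at 52.98, 15.1 and 30.5 against 80.96, 75.96 and 93.04, were lower as well (edgeR adjusted p = 0.0056 and 0.0171), but neither passed without SCZ_CA replicate 2. Both calls were also lost without both libraries that stood apart, where CSS014771 differed by -0.795 on the log2 scale (edgeR adjusted p = 0.046). CSS004066 (WRKY50, which in Arabidopsis takes part in the repression of jasmonate signalling), on scaffold 1759 at 1844543 to 1846526, was at 0.542, 0.0641 and 0.0968 FPKM in SCZ_CA against 0.887, 3.18 and 0.934 in YH9_CA (log2 fold change -2.65 ± 0.75, edgeR adjusted p = 0.013), a call lost without SCZ_CA replicate 3 or YH9_CA replicate 2.

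At DA the 11 loci lower in SCZ included 3 of group III, CSS023898, CSS048155 and CSS021589, of which CSS048155 was lost when any of 11 single libraries was left out. CSS012711 (WRKY31) was at 0.0982, 0.0346 and 0.264 FPKM in SCZ_DA against 13.03, 3.61 and 2.07 in YH9_DA (log2 fold change -5.33 ± 1.75, edgeR adjusted p = 0.0319). CSS042949 (WRKY71), on scaffold 4382 at 355249 to 356906, was at 0.4899, 0.273 and 0.225 against 3.92, 2.59 and 2.23 (log2 fold change -2.94 ± 0.93, edgeR adjusted p = 0.0264). CSS027280 (WRKY7) was at 19.7, 18.1 and 11.8 against 49.96, 39.1 and 33.8 (log2 fold change -1.14 ± 0.32, edgeR adjusted p = 0.0134), and CSS013388 (WRKY65) at 2.94, 4.29 and 1.51 against 13.8, 11.7 and 9.63 (log2 fold change -1.84 ± 0.61, edgeR adjusted p = 0.0345). Each of these 4 calls was lost when single libraries were left out, any of 4 for CSS012711, 3 for CSS042949, 2 for CSS027280 and 5 for CSS013388. In all 4 the 3 SCZ_DA libraries lay below the 3 YH9_DA libraries. Of the 15 loci lower in SCZ at CA and the 11 at DA, 6 were the same, 40% and 54.5% of the lists. The libraries of these comparisons are separate, but the matching overlap over all loci was not computed, so neither share is read as particular to WRKY loci.

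**Figure D5:**
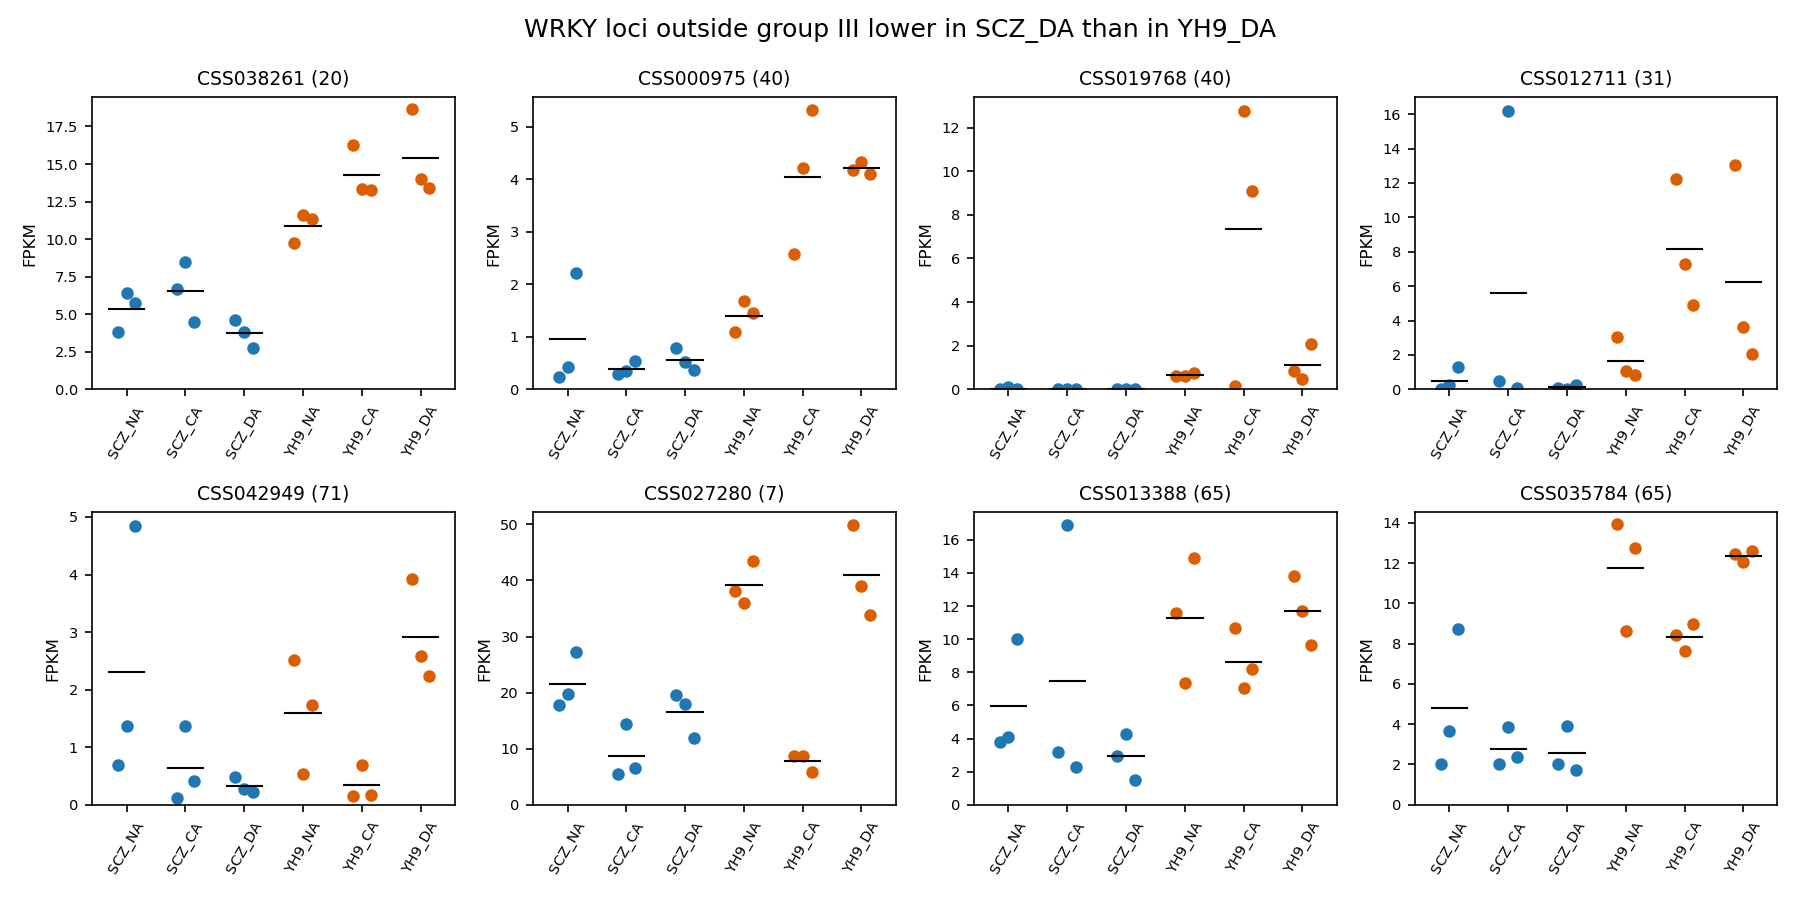
FPKM (vertical axis, from 0) of the 8 WRKY loci outside group III that were lower in SCZ_DA than in YH9_DA, in the 6 groups (SCZ blue, YH9 orange), with a point for each library in the order of replicates 1 to 3 and a black line at the group mean. The 3 SCZ_DA points lie below the 3 YH9_DA points in every panel, and CSS019768 is listed at 0 in all SCZ_CA and SCZ_DA libraries.

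Over the 9 comparisons 39 of the 54 loci passed at least once and 15 passed in none. The 15 included 4 of the steady group I loci at mean levels of 5.98 to 40.1 FPKM, CSS031292 and CSS038631 (both WRKY20), CSS025237 (WRKY44) and CSS021887 (WRKY32), whose highest group mean was 1.28 to 1.83 times the lowest. The others ranged from 0.701 to 22.7 FPKM. CSS021213 (WRKY75) had group means that differed up to 20.4 times and still did not pass, with 0, 0.551 and 6.299 FPKM in SCZ_NA and 0.0854, 4.89 and 0.831 in SCZ_CA. Its highest value in each of these groups was in the library that stood apart. CSS000386 (WRKY6, which in Arabidopsis represses the phosphate transporter gene PHO1 and acts in senescence) was at 2.37 ± 1.76 FPKM at NA, 4.52 ± 0.597 at CA and 7.53 ± 1.98 at DA in SCZ, and at 2.03 ± 1.202, 3.16 ± 0.862 and 5.84 ± 1.61 in YH9. CSS034272 (WRKY22) averaged 0.804 FPKM.

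Genes that work around WRKY factors were read from lists set by description, and the shares of all loci called at CA are those given with the WRKY counts. Of 39 mitogen-activated protein kinases of all tiers 4 rose and 2 fell at CA in SCZ, and 5 rose and 2 fell in YH9, with median log2 fold changes of 0.32 and 0.61. A pair of loci named after MPK3, the kinase that phosphorylates WRKY33 in Arabidopsis, rose in both. CSS032145 was at 17.79 ± 12.9 FPKM in SCZ_NA and 43.1 ± 14.5 in SCZ_CA, and at 11.7 ± 1.204 in YH9_NA and 91.2 ± 22.3 in YH9_CA (log2 fold changes 1.45 ± 0.35 and 2.92 ± 0.37, edgeR adjusted p = 0.00401 and 5.36e-05). CSS033492 was at 5.85 ± 3.69 and 52.99 ± 64.5 FPKM in SCZ, a spread wider than its mean at CA, and at 5.89 ± 0.779 and 42.3 ± 8.79 in YH9.

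Of 7 VQ motif loci 1 rose and 3 fell in SCZ, and 1 rose and 2 fell in YH9, with median log2 fold changes of -1.18 and -0.77. CSS038099 was the one that rose, in SCZ with 6.399 ± 3.71 FPKM at NA and 13.4 ± 2.98 at CA, in YH9 with 1.16 ± 0.214 and 9.37 ± 3.11. CSS033796 (VQ4-like) fell in both and was lower in SCZ_CA than in YH9_CA, at 3.02 ± 0.789 against 12.5 ± 3.36 FPKM (log2 difference -1.86 ± 0.28, edgeR adjusted p = 0.000202). Of 13 salicylic acid defence loci 1 rose and 3 fell in SCZ, and 2 rose and 2 fell in YH9, with medians of -0.29 and -0.22. CSS013033, named after PR-1, the marker gene of that pathway, fell in both cultivars, in SCZ with 35.95 ± 30.8 FPKM at NA and 0.9504 ± 0.127 at CA, in YH9 with 105 ± 23.1 and 4.11 ± 0.361 (log2 fold changes -4.98 ± 0.60 and -4.71 ± 0.58, edgeR adjusted p = 1.95e-05 and 4.39e-05). CSS052478 (NPR5, known in Arabidopsis for leaf patterning) was the one that rose in both, and CSS021369 (NPR3) fell in SCZ from 6.22 ± 2.09 to 2.13 ± 0.441 FPKM.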

How the data were processed

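RNA sequencing of 18 leaf libraries was analysed, 3 in each of 6 groups of cultivar and stage. Per the submitters' processing notes and the methods, the authors trimmed reads with cutadapt 1.9, mapped them with HISAT2 2.2.1 to the tea genome of Shuchazao and assembled and quantified loci with StringTie (2.1.6 in the notes, another version in the methods). UMI-tools, DESeq2 and edgeR are named there without a role, and the build named in the notes is not a tea build. The deposited table gives FPKM values computed by the authors, which are scaled to length and depth, and estimated counts per locus as deposited, in whole numbers, for every library. The program that wrote the counts is not given in the sources used here, and a count need not be 1 read. The 36 value columns all belonged to the 18 libraries.

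Loci with at least 1 FPKM in at least 3 libraries were tested. Counts were scaled by TMM and fitted over all 18 libraries with 1 term per group by edgeR 4.0.16 (R 4.3.3, quasi-likelihood test), and p-values were adjusted by Benjamini-Hochberg over the 29019 loci. A locus was called at an adjusted p under 0.05 and a change of at least 2-fold. The alternatives were no filter, median-of-ratios scaling, DESeq2 1.42.0, a spread set by the compared groups alone, the replicate number as a block, limma 3.58.1 on log2(FPKM + 1) or log2(FPKM + 0.1), and leaving out each library. Leaving out SCZ_NA replicate 3 and SCZ_CA replicate 2 together was added after the data were seen. The fit was tested on simulated data.

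Loci named in the text were the called loci with the largest changes (up to 8 in each direction of a comparison, with a mean of at least 2 FPKM in the higher group), the 10 with the highest mean and those named after WRKY33, 40, 70, 53, 6, 75, 22, 2, 44 or 20, and a few others chosen after their values were seen. Group was taken from the number in descriptions of the form "WRKY transcription factor" with a number, a narrower reading than planned, since numbers in other descriptions follow other species. The members and the lists were chosen with earlier results of these data known. No sequence is printed.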

Additional observations from a re-analysis of the deposited data

Results flagged for a closer look

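Of the 18 loci described as WRKY that stayed under the minimum of 1 FPKM in 3 libraries, 6 had a library at CA or DA that reached at least 1 FPKM and lay above all 3 NA libraries of its cultivar. CSS022939 (WRKY22) stood at 16.06 FPKM in SCZ_CA replicate 2, against at most 1.132 in the SCZ_NA libraries, the highest value among the loci left out. CSS004594 (WRKY72) stood at 8.013 FPKM in the same library, against at most 3.451 in SCZ_NA, and CSS031148, named after WRKY2 of cassava, at 2.05, against at most 0.2387. CSS024258 (WRKY51) stood at 1.067 FPKM in YH9_CA replicate 2, against at most 0.2778 in YH9_NA. In YH9_DA, CSS037532 (WRKY71) stood at 1.02 FPKM in replicate 3, against at most 0.0636 in YH9_NA, and CSS002369 (WRKY53) at 1.444 in replicate 1, against at most 0.4864. SCZ_NA replicate 3 came close to the YH9 values of CSS024258 and CSS037532, at 0.9148 and 0.8019 FPKM. Each of these values is from a single library with no test, and 3 of the 6 are from SCZ_CA replicate 2, which stood apart at the analysed loci as well.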

How the results depend on the processing

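Of 92 calls of named loci, tried under 26 alternatives each, 2090 of 2392 values kept their direction and call, 300 kept the direction without passing and 2 turned it. Both of these were CSS004412 (WRKY40) in SCZ_CA against YH9_CA, at 4.15 on the log2 scale with all libraries, -0.107 with the 2 libraries that stood apart left out, and -0.086 to 4.73 when single libraries were left out. No filter and median-of-ratios scaling left every count within 1.5 times. The counts that moved are given as higher or lower in the first group named. The causes were not tested.

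With a library left out, SCZ_CA against SCZ_NA gave 3 to 8 lower (7 with all), YH9_CA against YH9_NA 7 to 15 higher (12), SCZ_DA against SCZ_CA 2 to 7 higher (5), and YH9_DA against YH9_CA 1 to 5 higher (3) and 7 to 12 lower (11). SCZ_DA against SCZ_NA gave 0 to 2 higher (0) and 0 to 4 lower (1). SCZ against YH9 gave 0 to 2 higher (1) and 1 to 7 lower (4) at NA, 1 to 7 higher (3) at CA and 6 to 14 lower (11) at DA. The interaction gave 0 to 2 larger (0) and 0 to 6 smaller changes in SCZ (0).

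DESeq2 gave 5 higher in YH9_DA against YH9_CA, 2 higher and 6 lower in SCZ_DA against SCZ_NA, 2 higher and 7 lower in SCZ_NA against YH9_NA, 17 lower in SCZ_DA against YH9_DA, and 1 larger and 10 smaller interactions. With the spread from the compared groups alone, 5 were higher and 1 lower in SCZ_CA against SCZ_NA, 1 higher in SCZ_DA against SCZ_CA, 0 lower in SCZ_DA against SCZ_NA, 1 higher in YH9_DA against YH9_NA, 0 higher in SCZ against YH9 at NA and at CA, and 17 lower at DA. On log2(FPKM + 1), limma gave 4 lower in SCZ_CA against SCZ_NA, 6 lower in SCZ_DA against SCZ_CA, 6 higher in YH9_DA against YH9_CA, 2 higher and 0 lower in SCZ_DA against SCZ_NA, 0 higher in SCZ_NA against YH9_NA, 1 higher in SCZ_CA against YH9_CA and 7 smaller interactions. On log2(FPKM + 0.1) it gave 8 higher and 6 lower in SCZ_DA against SCZ_CA, 6 higher in YH9_DA against YH9_CA, 3 higher in SCZ_DA against SCZ_NA, 0 and 1 higher in SCZ against YH9 at NA and CA, and 1 smaller interaction. On these FPKM scales the median of all loci lay off 0 by up to -0.244 (SCZ_CA against YH9_CA) and 0.225 (SCZ_DA against SCZ_CA), and 2165 loci were higher and 4059 lower in SCZ_CA than YH9_CA on log2(FPKM + 1), beside 3726 and 4186 in edgeR. Without the 2 libraries that stood apart, 2 were higher and 0 lower in SCZ_DA against SCZ_NA, 1 higher in YH9_DA against YH9_NA, 0 higher and 9 lower in SCZ_NA against YH9_NA, and 1 higher in SCZ_CA against YH9_CA.

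The labels do not say whether equal replicate numbers mark paired samples. Of 18 pairs of same-numbered libraries 2 had deviations correlated above 0.1 (-0.136 to 0.285), which shows no strong shared effect but does not exclude pairing. With the replicate block 68 of the 92 calls were kept. It gave 4 lower in SCZ_CA against SCZ_NA, 6 lower in SCZ_DA against SCZ_CA, 0 lower in SCZ_DA against SCZ_NA, 0 higher in SCZ_NA against YH9_NA and 1 higher in SCZ_CA against YH9_CA, and left the other counts within 1.5 times.

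With 3 replicates, loci of a few FPKM were limited by the spread between libraries. Estimated counts are not whole reads of known origin, so the depth gives no exact counting error.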
